A study of Mus musculus with 37 samples.

Results

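The 9 genes described here encode receptors, bridging ligands, an adaptor and integrin subunits through which astrocytes take up synapses, debris and dying cells: Megf10, Mertk, Axl, Gas6, Pros1, Mfge8, Gulp1, Itgav and Itgb5. They were chosen by name, with earlier results of these data known, and each symbol was matched to 1 identifier among the 21975 genes of the deposited tables. RNA was sequenced from hippocampal astrocytes of adult male wild-type mice, selected by magnetic beads against the astrocyte surface protein ACSA-2. The methods name the strain as CD1, whereas the labels write CD31. Injured mice received a severe controlled cortical impact (CCI) over the right parietal cortex, and sham mice a craniectomy without impact; all were implanted with electrodes and recorded by electroencephalography and video. Injured mice with recurrent epileptic episodes formed the post-traumatic epilepsy group (PTE+), and injured mice without them the PTE- group. Hippocampi on the injured side (ipsilateral) and the opposite side (contralateral) were processed separately 4 months after injury. The contralateral libraries came from 5 PTE+, 10 PTE- and 5 sham mice, and those of the injured side from 4 PTE+, 8 PTE- and 5 sham animals, so that 17 of 20 mice contributed both. The severe impact removes much of the ipsilateral hippocampus, so the ipsilateral astrocytes of injured mice are those of the tissue that remained. Library totals ran from 25371887 to 55333329 counts contralaterally and from 36925501 to 59846479 ipsilaterally.

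Phagocytosis by astrocytes begins with a signal on the target, most often phosphatidylserine turned to the outer face of its membrane. Gas6 bridges this lipid to the receptor tyrosine kinases Mertk and Axl, and Pros1 (protein S) bridges it to Mertk. Mfge8 bridges it to integrins that contain the αv subunit (Itgav), such as αvβ5 (with Itgb5). Megf10 is a scavenger-type receptor that astrocytes use in synapse elimination, and Gulp1 is an intracellular adaptor of engulfment receptors of this type. All 9 are protein-coding genes, with GRCm38 positions given for Megf10 with its values and otherwise of Mertk at chr2:128698956-128802894, Axl at chr7:25757273-25788705, Gas6 at chr8:13465374-13494490, Pros1 at chr16:62854307-62929346, Mfge8 at chr7:79133768-79149060, Gulp1 at chr1:44551511-44796838, Itgav at chr2:83724397-83806916 and Itgb5 at chr16:33829665-33949338.

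The promoters of Gas6 and Mfge8 are shown because these were the 2 members with any group difference at an unadjusted p under 0.05. The RefSeq sequences (GRCm38.p6) cover the 250 bases before the start site, are written 5′ to 3′ on the gene's own strand, and have GC boxes (GGGCGG, or CCGCCC on the other strand) in capitals.
Gas6, chr8:13494536-13494785, minus strand: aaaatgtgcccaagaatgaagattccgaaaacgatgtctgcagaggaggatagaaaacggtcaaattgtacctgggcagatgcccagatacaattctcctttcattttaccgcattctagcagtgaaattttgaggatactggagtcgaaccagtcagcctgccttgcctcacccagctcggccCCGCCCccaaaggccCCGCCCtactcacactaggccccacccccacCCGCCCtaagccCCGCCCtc
Mfge8, chr7:79149061-79149310, minus strand: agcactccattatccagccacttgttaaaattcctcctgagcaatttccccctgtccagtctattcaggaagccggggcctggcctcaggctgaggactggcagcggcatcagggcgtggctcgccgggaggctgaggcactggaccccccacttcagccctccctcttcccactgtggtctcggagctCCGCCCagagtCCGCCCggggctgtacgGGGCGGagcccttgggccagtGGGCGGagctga
Each held 4 GC boxes and no TATA box (TATAAA, or TTTATA on the other strand). A GC box was present in 32.7% and a TATA box in 12.4% of the 32851 promoter windows of the same length. Of the 8 members with a promoter in the table, 7 had a GC box and 0 had a TATA box; the letters describe the windows only. The RefSeq start of Gas6 lies 45 bases upstream of its GENCODE start, and the starts of Mfge8 coincide.

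All members were detected, and by TPM, a measure of transcript abundance that accounts for gene length and depth, they covered a wide range. Mfge8 had by far the highest level, with a median of 5425 TPM over 37 libraries (lowest 2301, highest 8788), and was above the next member in all 37. Itgb5 (median 232 TPM) and Gas6 (216 TPM) did not separate, since Itgb5 was the higher in only 19 of 37 libraries. Axl followed at 101 TPM and Mertk at 82.4 TPM, with Axl the higher in 29 of 37 libraries. Pros1 had a median of 39.8 TPM, Itgav 21.8 TPM, Gulp1 6.95 TPM and Megf10 5.16 TPM. Gulp1 and Megf10 could not be ordered, as Gulp1 was the higher in 23 of 37 libraries and their order turned when CPM, which ignores length, was used.

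**Figure D1:**
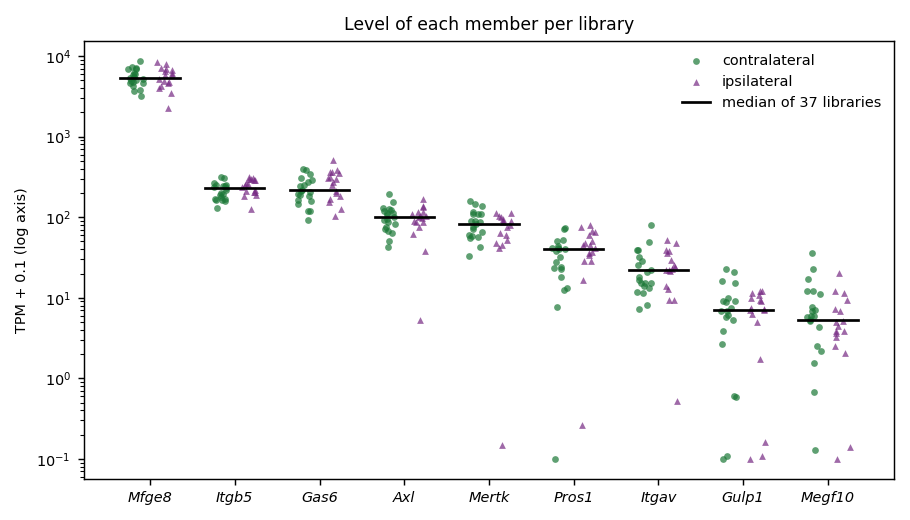
TPM (plus 0.1, log axis) of each member in each of 37 libraries, circles contralateral and triangles ipsilateral, with a bar at the median. Mfge8 lies above the other members in every library (median 5425 TPM), and single libraries of Mertk, Axl, Pros1, Itgav, Gulp1 and Megf10 drop far below the rest.

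Spread between mice was large for the weakly expressed members. The coefficient of variation of the CPM (counts scaled by depth and TMM over all libraries) was 25.3% for Mfge8 and 22.4% for Itgb5, against 86.1% for Megf10 and 78.4% for Gulp1. Gulp1 had 3 or fewer counts in 4 libraries, Megf10 in 2 and Pros1 in 1, so in these libraries a level at or near 0 says only that the gene was not detected. Such levels did not simply follow library totals. Among contralateral PTE- mice, Gulp1 had 0 counts in a9_14 (total 48197352) and 403 in a9_16 (total 32526127). The library without Pros1, contralateral PTE- a9_20, did have the lowest total (25371887). The cause was not tested.

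The ipsilateral library of PTE- mouse a8_11 stood apart from the other 36. It had the fewest genes with a count (9020) and the lowest summed CPM of 12 astrocyte markers (11391), although all 12 were detected, and the highest summed CPM of 6 ependymal and choroid plexus markers (5805). Megf10 and Gulp1 were at 0 CPM in it, Mertk was at 0.1003 CPM, Axl at 3.76 CPM and Pros1 at 0.426 CPM. The same library had the highest Gas6 of all (790 CPM) and the lowest Mfge8 (3597 CPM). On the log2(CPM + 1) scale, its removal took the ipsilateral difference of PTE+ minus PTE- from 1.0019 to 0.49 for Megf10, from 1.0024 to 0.30 for Axl, from 0.87 to -0.054 for Mertk, from 0.71 to -0.065 for Pros1 and from 0.83 to 0.43 for Gulp1. It took that of Gas6 from -0.33 to -0.23, and the differences of Mfge8, Itgav and Itgb5 were between -0.18 and 0.085 with and between -0.17 and -0.014 without it. No exact permutation p of these was under 0.05, with or without mouse a8_11. The ipsilateral library of PTE- mouse a8_14, which remained in these values, was also low for Megf10 (0.192 CPM), Gulp1 (0.0213 CPM) and Itgav (0.0851 CPM). Among the 36 libraries other than ipsilateral a8_11, the astrocyte markers summed to 18314 to 39221 CPM, with all 12 detected. In the same 36 libraries, summed CPM was 0.0579 to 735 for 12 microglial and macrophage markers, 38.5 to 3659 for 9 endothelial, 913 to 3974 for 9 mural and fibroblast, 81.4 to 2207 for 8 oligodendrocyte lineage and 86.4 to 1632 for 8 neuronal markers. In bulk libraries, fewer cells of a type and less RNA per cell cannot be told apart.

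None of the 9 members reached an adjusted p under 0.05 (edgeR quasi-likelihood test, Benjamini-Hochberg over all genes tested) in any of 11 comparisons, and the lowest adjusted p was 0.9998. Across all genes, this threshold was passed by 0.00683% contralaterally in PTE+ against PTE-, and by none in the other 10 comparisons. At an unadjusted p under 0.05, 3 of 99 member comparisons passed, 1 for Mfge8 and 2 for Gas6. All 3 also met the criteria of the study's methods (the same p, a difference of at least 1.2-fold, and more than 5 TPM on average in either group). With DESeq2, 23, 26 and 31 genes passed an adjusted p of 0.05 in the contralateral PTE+ against PTE-, PTE- against sham and PTE+ against sham comparisons, and 63, 19 and 63 in the same ipsilateral ones. The 5 comparisons that involve both sides had 122 to 253 such genes, or 0.776% to 1.61% of those tested. No member was among them in any comparison (lowest adjusted p of a member 0.6004). The share of all genes at an unadjusted p under 0.05 was 2.21%, 1.54% and 1.23% in contralateral PTE+ against PTE-, PTE- against sham and PTE+ against sham, and 1.75%, 1.58% and 1.66% in the same ipsilateral comparisons. It was 4.56%, 2.05% and 2.93% between the sides of PTE-, sham and PTE+ mice, and 3.13% and 2.94% for the side difference of PTE- against sham and of PTE+ against PTE-. The fit behind these 5 comparisons did not pair the libraries by mouse. The 3 of 99 member comparisons that passed lay within the range of all these shares. The CPM of every member overlapped between groups in all 6 comparisons within a hemisphere, as it did for nearly all genes: in the order above, 0.0410%, 0.0273% and 0.615% of genes contralaterally and 0.161%, 0.0939% and 1.15% ipsilaterally had groups without overlap.

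**Figure D2:**
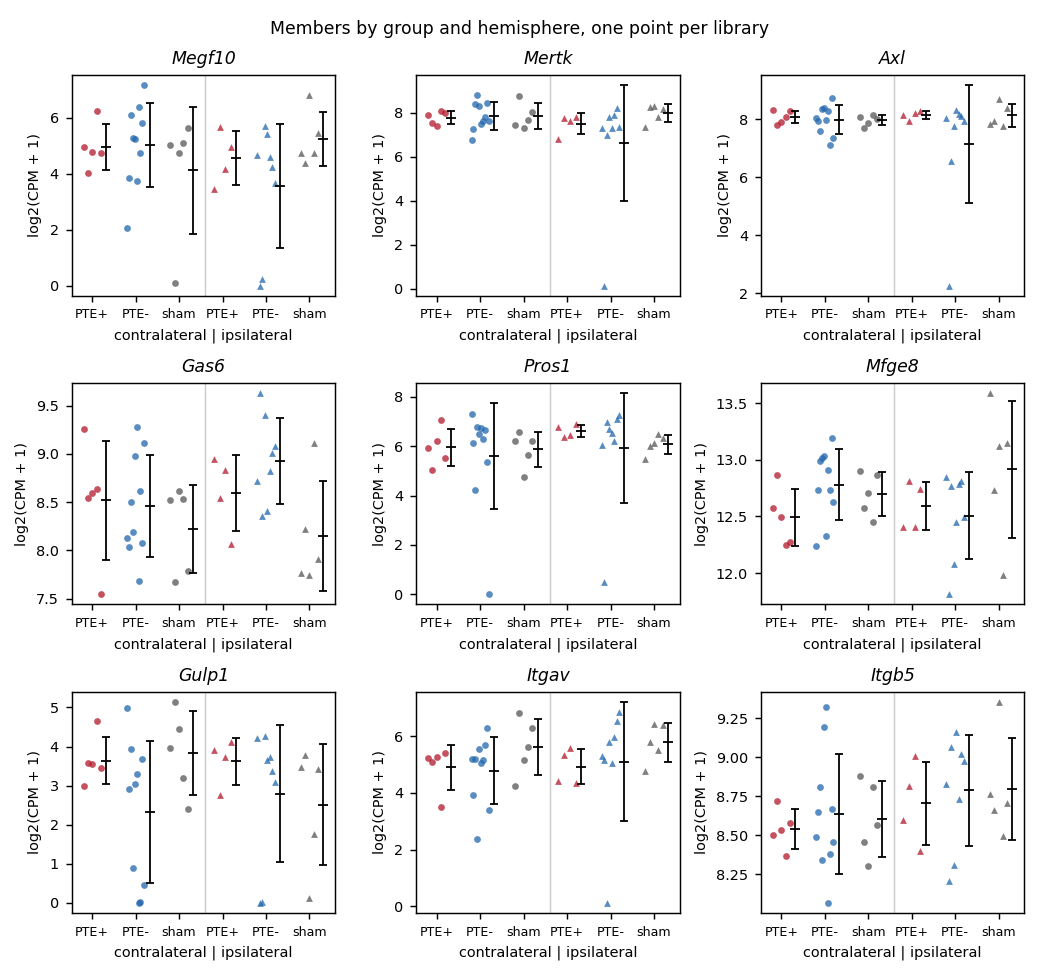
log2(CPM + 1) of each member per library, grouped by hemisphere and condition (red PTE+, blue PTE-, grey sham), with the mean and SD beside each group. Groups overlap for every member; the ipsilateral PTE- library near 0 for Mertk, and lowest for Axl and Pros1, is that of mouse a8_11.

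Among the receptors, Megf10 and Mertk did not differ between PTE+ and PTE- beyond the spread of the mice. Megf10 lies at chr18:57133090-57297467 (GRCm38). Contralaterally it was at 15.4, 25.8, 26.3, 30.02 and 74.9 CPM in the PTE+ mice. In the 10 PTE- mice it ran from 3.18 to 144 CPM with a median of 37.1 CPM. The PTE- range enclosed all PTE+ values, and the log2 fold change of PTE+ over PTE- was -0.49 (SE 0.84, edgeR p = 0.567). Ipsilaterally, Megf10 was at 10.02, 16.99, 29.96 and 50.4 CPM in PTE+ and at 0 to 50.5 CPM (median 20.5) in PTE- mice. The log2 fold change there was 0.36 (SE 1.15, edgeR p = 0.758), and it changed sign to -0.14 without PTE+ mouse a9_17. In sham mice Megf10 was at 0.0630, 25.8, 31.9, 32.9 and 48.7 CPM contralaterally and at 19.96, 25.7, 25.9, 43.1 and 111 CPM ipsilaterally.

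Contralateral Mertk was at 168, 187, 237, 249 and 269 CPM in PTE+ mice, within the PTE- range of 107 to 447 CPM (median 211). Its log2 fold change was -0.18 (SE 0.30, edgeR p = 0.561). In the ipsilateral hippocampus it was at 110, 199, 216 and 222 CPM in PTE+ mice, while PTE- mice ran from 0.1003 to 298 CPM (median 161). The difference was 0.15 on the log2 scale (SE 0.78, edgeR p = 0.854) and -0.017 without mouse a8_11. In sham mice, Mertk was at 157, 171, 204, 258 and 433 CPM contralaterally and at 165, 219, 289, 309 and 314 CPM ipsilaterally. Axl had group medians between 246 and 289 CPM in both hemispheres, and no comparison of Axl reached an unadjusted p of 0.05.

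Among the bridging ligands, ipsilateral Gas6 was higher in PTE- than in sham mice before adjustment only. Sham mice were at 213, 216, 239, 297 and 551 CPM. The 8 PTE- mice ran from 328 to 790 CPM with a median of 483 CPM, so 4 of 5 sham mice were below every PTE- mouse and only sham mouse a9_10 overlapped. PTE+ mice lay between, at 266, 373, 456 and 492 CPM. The log2 fold change of PTE- over sham was 0.76 (SE 0.29), a 1.69-fold difference, with an unadjusted edgeR p of 0.0167 and an adjusted p of 0.9999. Exact permutation of log2(CPM + 1) gave p = 0.0233 for 8 against 5 mice and, without mouse a8_11, a difference of 0.68 and p = 0.0379. The criteria of the methods were met by 1 of 9 members here, and by 0.986% of all genes (1.58% at the unadjusted p alone).

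Within each of the library name prefixes, whose meaning the labels do not give, the Gas6 difference kept its direction: 0.91 for 3 against 2 mice of prefix a8 (exact permutation p = 0.2, smallest possible 0.1) and 0.69 for 5 against 3 mice of prefix a9 (exact permutation p = 0.143). It was lost from the unadjusted threshold when sham mouse a8_15 was left out (0.63, edgeR p = 0.0537). In the contralateral hippocampus, Gas6 was at 186, 372, 387, 396 and 612 CPM in PTE+ mice, at 205 to 619 CPM (median 326) in PTE- mice and at 203, 219, 367, 369 and 390 CPM in sham mice, all overlapping. Comparisons of PTE- with sham and of PTE+ with PTE- share the PTE- libraries.

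Between the hemispheres of PTE- mice, Gas6 passed the unadjusted edgeR threshold only. It was higher ipsilaterally in 7 of 8 PTE- mice, in 3 of 5 sham mice and in 2 of 4 PTE+ mice. The log2 fold change of ipsilateral over contralateral in PTE- mice was 0.53 (SE 0.26, edgeR p = 0.0461). This fit did not pair the libraries by mouse. With the mouse as a block the log2 fold change was 0.57 (edgeR p = 0.0277), and an exact sign-flip permutation test over the 8 mice gave p = 0.0781. The edgeR p stayed under 0.05 in 3 of 8 fits that each left out 1 PTE- mouse, and was lost without a8_9, a8_11, a9_14, a9_15 or a9_16; without a8_11 the value was 0.39 (p = 0.152). In the same comparison 2 of 12 astrocyte markers (Gjb6, -0.45, edgeR p = 0.0172, and Aldoc, -0.56, p = 0.0280) and 1 of 9 endothelial markers (Emcn, -2.23, p = 0.0317) were lower. The 6 ependymal and choroid plexus markers had a median log2 fold change of 1.39 there (all genes -0.032), and 0 of them passed the unadjusted threshold. The part of these markers in the Gas6 difference was not tested. The criteria were met by 1 of 9 members and by 1.75% of all genes in this comparison. Whether the hemisphere difference was larger in PTE- than in sham mice did not reach the threshold (exact permutation p = 0.161).

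**Figure D3:**
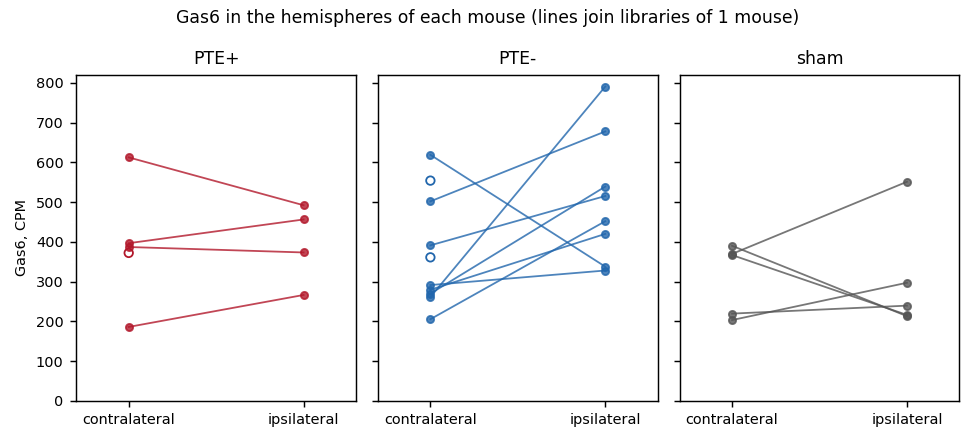
Gas6 CPM in each hemisphere, 1 panel per condition; lines join the libraries of 1 mouse and open circles are mice with a contralateral library only. In PTE- mice 7 of 8 lines rise towards the ipsilateral side, against 3 of 5 in sham mice.

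Markers of other cell types were high in some of the libraries with high Gas6. The summed CPM of the 6 ependymal and choroid plexus markers (Foxj1, Ttr, Kl, Ccdc153, Folr1, Tmem212) was 136 to 5805 in ipsilateral PTE- mice and 37.8 to 575 in ipsilateral sham mice, with medians of 222 and 201 CPM. Ttr alone reached 3988 CPM in ipsilateral PTE- and 183 CPM in ipsilateral sham mice, with a median of 0 CPM in both. Foxj1, Ccdc153 and Tmem212 reached 172, 597 and 707 CPM in ipsilateral PTE- and 63.3, 281 and 166 CPM in ipsilateral sham mice. The median log2 fold change of the 6 markers was 1.73 in this comparison (all genes 0.024), and 0 of them reached an unadjusted edgeR p of 0.05. At least 4 of the 6 were detected in every library. The 2 libraries with the highest sums, those of PTE- mice a8_11 and a9_12, also had the highest ipsilateral Gas6 (790 and 678 CPM), and sham mouse a9_10, which had the highest sum among sham mice, had the highest sham Gas6. Without a8_11 and a9_12 the Gas6 difference from sham was 0.55 (edgeR p = 0.0610), and when a9_10 was left out as well it was 0.85 (edgeR p = 0.00126). Both settings were chosen after seeing the data. As a9_10 had the highest sham Gas6, leaving it out raises the difference whatever its marker sum, so the second value says nothing on the markers. Spearman's rho of Gas6 with the summed markers was 0.63 over 20 contralateral and 0.60 over 17 ipsilateral libraries, as a description of libraries that also share depth and input. In the same comparison, 2 of 12 astrocyte markers were lower (Aldh1l1, log2 fold change -0.63, edgeR p = 0.00882, and Aldoc, -0.72, p = 0.0145). Of 9 mural and fibroblast markers, 1 was higher (Dcn, 1.37, edgeR p = 0.0249), and their median log2 fold change was 0.99. Their summed CPM was 913 to 3004 (median 1944) in ipsilateral PTE- and 1121 to 3931 (median 2439) in ipsilateral sham mice. The part of these cell types in the Gas6 difference was not tested.

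**Figure D4:**
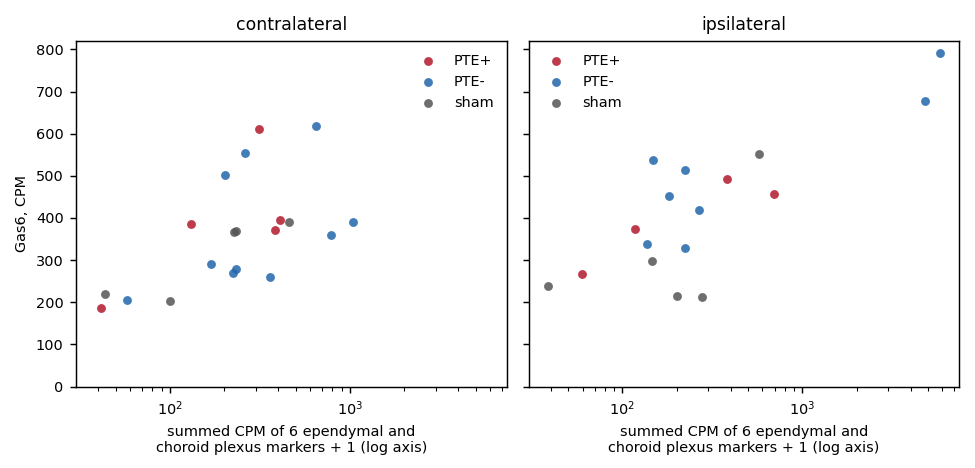
Gas6 CPM against the summed CPM of 6 ependymal and choroid plexus markers (plus 1, log axis) in each library, contralateral on the left and ipsilateral on the right, coloured by condition. The 2 ipsilateral PTE- libraries at the far right (5805 and 4818 CPM of the markers) have the highest Gas6 values.

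Gas6 shares 34 exonic bases with Tmem255b on the opposite strand, and the reads there cannot be assigned to a strand. Tmem255b was at a median of 8.45 CPM, far below Gas6.

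Mfge8, the ligand with the highest level, was lower in contralateral PTE+ than PTE- astrocytes at an unadjusted edgeR p only. The PTE+ mice were at 4867, 4964, 5783, 6083 and 7473 CPM, and the 10 PTE- mice ran from 4842 to 9353 CPM with a median of 7243 CPM. All but 1 PTE+ mouse were below the PTE- median, yet the groups overlapped. Contralateral sham mice were at 5587, 6092, 6692, 7461 and 7647 CPM. The log2 fold change of PTE+ over PTE- was -0.32 (SE 0.15, edgeR p = 0.0432 before and 0.9998 after adjustment). By exact permutation of the mice, p was 0.103. Only 1 of 9 members met the criteria of the methods in this comparison, as did 1.26% of all genes (2.21% at the unadjusted p alone).

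By prefix, the Mfge8 difference was -0.46 in a9 mice (3 against 6, exact permutation p = 0.0476) and -0.025 in a8 mice (2 against 4, exact permutation p = 1.0). Leaving out 1 mouse at a time gave -0.41 to -0.25, with an edgeR p under 0.05 in 4 of 15 fits. Of the 12 astrocyte markers, Gjb6 was lower in the same comparison (-0.47, edgeR p = 0.0287). Among markers of other cell types, endothelial Ly6c1 (1.04, edgeR p = 0.0415) and neuronal Snap25 (1.36, edgeR p = 0.0401) were higher in PTE+ mice, and the ependymal and choroid plexus marker Kl was lower at under 1 TPM. The 9 endothelial markers summed to 613 to 3659 CPM (median 1624) in PTE+ and 355 to 1826 CPM (median 853) in PTE- mice, and the 8 neuronal markers to 91.0 to 1632 CPM (median 330.0) and 131 to 480.3 CPM (median 184). The part of these cell types in the Mfge8 difference was not tested. The median log2 fold change of the 12 markers was -0.15, and that of all genes was -0.047. In the ipsilateral hippocampus Mfge8 was at 5437, 5443, 6846 and 7197 CPM in PTE+ mice, 3597 to 7366 CPM (median 6392) in PTE- mice and 4045, 6827, 8937, 9075 and 12321 CPM in sham mice, with no difference past the threshold.

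Pros1, the second ligand of Mertk, was at 31.8, 44.9, 59.3, 72.1 and 133 CPM in contralateral PTE+ mice, from 0 to 157 CPM (median 83.2) in contralateral PTE- mice and at 25.9, 48.3, 72.8, 73.1 and 93.7 CPM in contralateral sham mice. In the ipsilateral hippocampus, PTE+ mice were at 82.8, 87.0, 107 and 118 CPM. Ipsilateral sham mice were at 43.7, 62.6, 68.4, 79.4 and 88.4 CPM, and ipsilateral PTE- mice ran from 0.426 to 154 CPM (median 97.5). No edgeR comparison of Pros1 reached an unadjusted p of 0.05. Without mouse a8_11, the ipsilateral PTE- mice were higher than sham by 0.61 on the log2(CPM + 1) scale (exact permutation p = 0.0404), against -0.16 with it (exact permutation p = 0.988). That library was set apart after seeing the data, and these p-values were not adjusted for the number of members and comparisons.

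The adaptor Gulp1 had group medians between 6.87 and 14.5 CPM. It was at or below 1 CPM in 4 of 10 contralateral and 2 of 8 ipsilateral PTE- mice, and in 1 of 5 ipsilateral sham mice. The integrin subunit Itgav had group medians between 30.2 and 54.5 CPM, and was at 0.0851 CPM in ipsilateral PTE- mouse a8_14. Its partner Itgb5 was the steadiest member, with group medians between 369 and 478 CPM. No comparison of Gulp1, Itgav or Itgb5 reached an unadjusted p of 0.05.

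**Figure D5:**
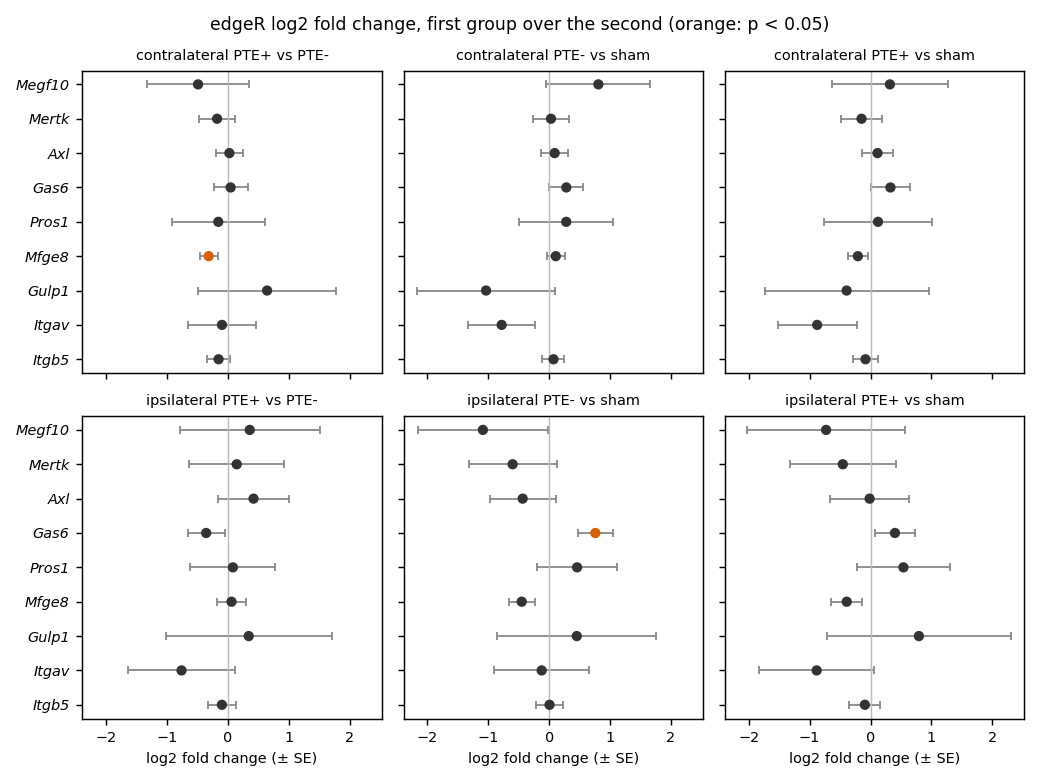
edgeR log2 fold change (± SE) of each member in 6 group comparisons, contralateral above and ipsilateral below, with unadjusted p under 0.05 in orange. Only Mfge8 (-0.32, contralateral PTE+ against PTE-) and Gas6 (0.76, ipsilateral PTE- against sham) are in orange.

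Of 70 genes in 5 lists (other engulfment receptors, other bridging and opsonizing ligands, signalling and cytoskeleton, phosphatidylserine exposure, and phagosome maturation), 65 were tested contralaterally and 61 ipsilaterally. The lists were chosen with earlier results of these data known, so their shares are a description only. In contralateral PTE+ against PTE- mice, 1 was higher and 4 were lower at an unadjusted p under 0.05, or 7.69%, where all genes gave 2.21%. Of these, 3 met the criteria of the methods, all of them lower. The lysosomal protease Ctsb was at 828 to 979 CPM in PTE+ and 938 to 1342 CPM in PTE- mice (log2 fold change -0.28, edgeR p = 0.0200). The lysosomal membrane protein Lamp2 was at 145 to 217 CPM in PTE+ and 70.0 to 450 CPM in PTE- mice (-0.64, edgeR p = 0.0446). The lipid carrier Apoe, an abundant astrocyte product, was also lower (-0.42, edgeR p = 0.0348). The others were the scavenger receptor Stab2 (0 to 0.0258 CPM in PTE+ mice, 0 to 1.23 CPM in PTE- mice) and the matrix ligand Thbs1 (0 to 16.3 CPM and 0 to 0.988 CPM). Their highest group means were 0.081 and 1.62 TPM, under the 5 TPM of the criteria, and no fold is given. None reached an adjusted p of 0.05.

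Contralateral PTE- against sham gave 2 higher and 0 lower of the 65. These were Thbs1, which had 0 CPM in all sham mice, and the autophagy gene Atg5, at 26.8 to 114 CPM in PTE- and 6.42 to 46.1 CPM in sham mice (log2 fold change 1.11, edgeR p = 0.0331). All genes gave 1.54% in this comparison. Ipsilaterally, 0 of 61 genes passed the unadjusted threshold in PTE+ against PTE- (all genes 1.75%) or in PTE- against sham, and 1 of 61 in PTE+ against sham (all genes 1.66%). That gene was Apoe, at 22660 to 32657 CPM in PTE+ and 28018 to 59576 CPM in sham mice (-0.56, edgeR p = 0.00885). Between the sides of PTE- mice, 1 was higher and 4 were lower of 67, or 7.46% (all genes 4.56%). Apoe was again lower (-0.37, edgeR p = 0.0286), and it alone met the criteria. The others, Thbs1 (higher) and Xkr4, Msr1 and Tulp1 (lower), had highest group means of 2.08, 0.595, 0.5225 and 0.274 TPM. The side difference of Apoe in PTE- against sham mice was -0.64 (edgeR p = 0.0206). These Apoe comparisons were singled out after their values were seen. The 15 genes of signalling and cytoskeleton had no gene past the unadjusted threshold in any of the 11 comparisons.

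The genes whose levels most resembled those of each member across the 20 contralateral libraries were compared among 9768 genes, and the same measure was then read in the 17 ipsilateral libraries. Gas6 resembled Cdhr3, a cadherin-related gene of ciliated cells (Spearman's rho 0.92 contralateral and 0.58 ipsilateral), Lbp (0.86 and 0.67) and 1700024G13Rik (0.85 and 0.66). Mertk resembled Slc1a3, the astrocyte glutamate transporter (0.81 and 0.72), and also Cnot3 (0.77 and 0.037) and Rfx7 (0.76 and 0.31), which were less alike ipsilaterally. Mfge8 resembled the histamine receptor gene Hrh1 (0.79 and 0.62), Gdpd2 (0.76 and 0.71) and Ccn1 (0.73 and 0.54). For Megf10, Axl, Pros1, Gulp1, Itgav and Itgb5, the 3 genes most alike contralaterally had a rho of -0.42 to 0.43 ipsilaterally. Among the 36 pairs of members, 0 had a rho of at least 0.5 in both hemispheres, and the range was -0.34 to 0.42 contralaterally and -0.75 to 0.63 ipsilaterally. The lowest ipsilateral value was that of Gas6 with Mfge8, which had a rho of -0.16 contralaterally.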

How the data were processed

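The authors trimmed reads from SMART-Seq v4 libraries with Trim Galore 0.6.4 and quantified them with RSEM 1.2.28 and Bowtie2 2.4.1 on mm10 (submitters' processing notes); the annotation release is not given in the sources used here. The deposited values are RSEM expected counts, already rounded to whole numbers, and TPM, with 1 column per library. Symbols and positions came from GENCODE M21 (GRCm38), which matched 21856 of 21975 identifiers. Counts were tested with edgeR 4.0.16 (TMM, filterByExpr, quasi-likelihood test, Benjamini-Hochberg adjustment) in R 4.3.3, by hemisphere with all 3 groups, and over the 17 mice with both libraries for side differences. All 9 members passed the filter, leaving 14642 contralateral, 14903 ipsilateral and 15731 joint genes. The script was tested on simulated counts, which checks the code and does not measure the power to find changes in these data. The common biological coefficient of variation (spread between libraries beyond counting noise) was 1.32 in the contralateral, 1.40 in the ipsilateral and 1.39 in the joint fit. Recovery of changes at such a spread is not given here. Exact two-sided permutation tests used log2(CPM + 1), with a pseudocount of 1. Alternatives were RLE size factors, no filter, DESeq2 1.42.0, limma 3.58.1 on log2(TPM + 1), the name prefix as covariate, the mouse as a block, and leaving out each mouse. Libraries of the same mouse deviated together little (median correlation 0.0877 over 17 pairs, and -0.0161 over 88 pairs of different mice); the pairing comes from the shared animal. Members were named in full, fold changes only where the edgeR p was under 0.05 and for Megf10 and Mertk in PTE+ against PTE-, pathway genes at most 6 per comparison under the same p, and 3 like genes per member. Members and lists were chosen with earlier results of these data known. Within a hemisphere each library is 1 mouse, and p-values there measure the spread between mice. The main edgeR fit over both sides took the 2 libraries of a mouse as independent. With the mouse as a block, 315, 52 and 120 of 15731 genes had an edgeR p under 0.05 between the sides of PTE-, sham and PTE+ mice. Without the block these were 717, 323 and 461.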

Additional observations from a re-analysis of the deposited data

Results flagged for a closer look

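Of 54 tests of whether 1 library lay apart from its own group (Dixon's 95% limit, on CPM), 7 flagged a library. The nominal rate of about 1 in 20 assumes normally distributed values and independent tests. Neither is assured for the CPM of members read in the same libraries, so 7 of 54 is not read as an excess. Contralateral PTE+ mouse a9_18 was flagged for 3 members, with the highest Megf10 (74.9 CPM, next 30.02) and Gulp1 (24.0 CPM, next 10.97) and the lowest Itgav (10.2 CPM, next 33.4). Ipsilateral sham mouse a9_9 had the highest Megf10 (111 CPM, next 43.1) and Itgb5 (654 CPM, next 434). Ipsilateral sham mouse a9_10 had the highest Gas6 (551 CPM, next 297). Contralateral PTE- mouse a8_9 had the highest Gulp1 (30.6 CPM, next 14.4). None of 18 tests of a difference in side effects between groups passed.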

How the results depend on the processing

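The member counts and named fold changes were recomputed under the alternatives, and of the members and pathway genes refitted so, every call at an unadjusted p under 0.05 was lost in some fit with 1 mouse left out, except Thbs1 in contralateral PTE+ against PTE- and Apoe in ipsilateral PTE+ against sham and in the side difference. For Thbs1 this covers 14 fits, as it had no value in 1 of the 15. The call remained in 4 of 15 fits for Mfge8, 12 of 13 for ipsilateral Gas6, 3 of 8 for Gas6 between sides, 6 of 15 for Lamp2, 10 of 15 for contralateral Apoe (5 of 8 between sides), 11 of 15 for Atg5 and Stab2, 14 of 15 for Ctsb and 9 of 14 for Thbs1 in PTE- against sham. Contralateral Mfge8 (PTE+ against PTE-) was -0.16 (p = 0.421) with limma on log2(TPM + 1), where 0 members met the criteria; there the median of all genes moved to 0.28 and calls turned from 50 higher and 135 lower to 525 and 55. Contralateral Mertk changed sign with it, to 0.0404. Without the filter, 0 members differed between the sides of PTE- mice (Gas6 p = 0.0516) and 1 in the side difference of PTE- against sham. By TPM, Megf10 ranked 9 and Gulp1 8. Leaving out a8_11, a9_12 and a9_10, chosen after seeing the data, gave 3 members in ipsilateral PTE- against sham, where 2.12% of all genes met the criteria. With 1 mouse left out, member counts ranged from 0 to 1 in contralateral PTE+ against PTE-, the side comparison of PTE- mice and the side difference of PTE- against sham, from 0 to 2 in ipsilateral PTE- against sham and PTE+ against sham, and stayed at 0 elsewhere. Gas6 ranged from 0.63 to 1.08 ipsilaterally (without a8_15 and a9_10) and from 0.39 to 0.76 between sides (without a8_11 and a9_13). PTE+ against PTE-, ipsilateral Megf10 ranged from -0.14 (without a9_17) to 0.67 (without a9_12) and Mertk from -0.017 (without a8_11) to 0.34 (without a8_10). The replicate block, pairing libraries by mouse, gave 1 member (Gas6, 0.57) and changed no call. The cause of these shifts was not tested.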
